A study of Mus musculus with 6 samples.

Results

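The endosomal Toll-like receptors that sense nucleic acids, Tlr3, Tlr7, Tlr8, Tlr9 and Tlr13, and their chaperone Unc93b1 were followed in microglia sorted by lipid droplet content. These 6 genes were chosen by their function and found by symbol among the 16179 genes of the table. They were proposed with the values of this same contrast known, so their fold changes and calls are given as a description, without p-values. All 6 were present and had a mean of at least 10 normalised reads over the libraries.

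The microglia came from the hippocampus of male progranulin knockout mice, 10 months old, of strain B6.129S4(FVB)-Grntm1.1Far/Mmja, which lack the gene Grn. Live cells with CD11b and low CD45 were sorted with BODIPY, a dye for neutral lipid, into a group with few lipid droplets (BODIPY-low, here lipid-low) and a group rich in them (BODIPY-high, here lipid-high), with 3 libraries each. Each sample pooled the hippocampi of 2 mice, but whether libraries of the 2 groups share a pool is not stated. Both groups lack progranulin, and libraries of wild-type mice were not analysed here.

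Toll-like receptors of the endosome are membrane proteins whose ligand-binding part faces the lumen, where nucleic acid from engulfed cells and microbes is set free. Tlr3 binds double-stranded RNA and signals through the adaptor Ticam1 (TRIF), while Tlr7, Tlr8, Tlr9 and Tlr13 signal through Myd88. The receptors leave the endoplasmic reticulum only when bound to Unc93b1, and proteases of the endolysosome then trim several of them into their active form. In the brain, microglia are a main carrier of these receptors, and signals from them lead to NF-kB activity, cytokines and type I interferon.

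All values are normalised reads, that is, reads of a gene divided by the size factor of the library. Library depth lay between 24982215 and 34899425 recovered reads. Normalised reads of Grn were 416 to 990.1 in lipid-low and 468 to 1614 in lipid-high libraries, and where in the gene they lie was not analysed here. All 10 microglial markers, such as Csf1r and P2ry12, were present, and their sum was 1667812 to 1902692 in lipid-low and 1482597 to 1608982 in lipid-high libraries, so that every lipid-high library lay below every lipid-low library. Other cell types also differed. The sum of 10 neutrophil markers lay between 31219 and 83495 in lipid-low and between 207 and 2409 in lipid-high libraries, and that of 8 choroid plexus markers between 3697 and 18544 and between 149778 and 262433. The sum of 8 monocyte markers was 5960 to 12875 in lipid-low and 102 to 607 in lipid-high libraries, and that of 8 border macrophage markers was 1081 to 1484 and 1614 to 2450. In bulk libraries such as these, fewer cells of a type and less RNA per cell cannot be told apart.

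Promoter sequences (RefSeq, GRCm38.p6) were present for 4 of the 6 genes, Tlr3, Tlr8, Tlr9 and Tlr13. The stretches below lie before the RefSeq transcription start and outside exons annotated by GENCODE M21, those of Tlr3 and Tlr9 ending at the start and that of Tlr13 ending 71 bases before it. That of Tlr3 lies within an intron of the gene as GENCODE draws it. Sequences are shown for Tlr3 and Tlr13, whose level was lower in lipid-high libraries, and for Tlr9, which holds the searched motif of PU.1, a transcription factor of microglia, on both strands. Capitals mark the PU.1 core GAGGAAG. The regions are chr8:45410381-45410452 (minus strand), chrX:106143025-106143203 (plus strand) and chr9:106222348-106222597 (plus strand).
Tlr3: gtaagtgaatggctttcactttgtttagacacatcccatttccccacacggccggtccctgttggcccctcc
Tlr13: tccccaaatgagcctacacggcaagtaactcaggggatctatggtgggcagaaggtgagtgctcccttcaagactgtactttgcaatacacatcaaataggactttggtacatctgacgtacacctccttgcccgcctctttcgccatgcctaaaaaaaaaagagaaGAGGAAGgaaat
Tlr9: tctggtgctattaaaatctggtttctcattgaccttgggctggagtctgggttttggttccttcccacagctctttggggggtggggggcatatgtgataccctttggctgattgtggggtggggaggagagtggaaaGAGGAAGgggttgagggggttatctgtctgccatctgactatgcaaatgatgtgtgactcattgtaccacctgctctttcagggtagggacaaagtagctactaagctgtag

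Over the full window of 250 bases before to 50 bases after the start, the PU.1 core on either strand was found at 83 bases before the start of Tlr13 and, for Tlr9, at 112 bases before and, on the other strand, 12 bases after the start. It occurs in 13.6% of the 32851 RefSeq promoter windows. The Tlr3 window held none of the 6 motifs searched on both strands. The other motifs were GGAANNGAA (a joint site of ETS and IRF factors, in 8.24% of windows), GAAANNGAA (an interferon-stimulated element, 8.56%), TGAGTCA (AP-1, 5.20%), CACGTG (E-box, 7.15%) and TATAAA (13.6%), and matches of the ETS motifs and of the GAA motifs can overlap. Among the 4 windows, TGAGTCA was found in Tlr9 only, 58 bases before the start, and GAAANNGAA in Tlr8 only, 67 bases before it. These are matches of letters.

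Unc93b1 was by far the most abundant of the 6 genes, and Tlr13 and Tlr7 were the most abundant receptors among them. Per kilobase of annotated exon, the mean level in lipid-low libraries was 21630 ± 689 normalised reads for Unc93b1, 4074 ± 501 for Tlr13, 3360 ± 134 for Tlr7, 889 ± 41.5 for Tlr3, 42.9 ± 3.51 for Tlr9 and 7.92 ± 0.604 for Tlr8 (SD, n = 3). In lipid-high libraries the same order of means was found, with 20722 ± 1196, 3164 ± 340, 2453 ± 54.8, 606 ± 50.8, 27.4 ± 14.9 and 8.04 ± 6.98 (SD, n = 3). Each library kept this order, with 1 exception: in lipid-high replicate 1, Tlr8 (14.2 per kilobase) lay above Tlr9 (11.1). Which transcripts were read is not known, so these levels rest on the summed exon length of each gene.

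**Figure D1:**
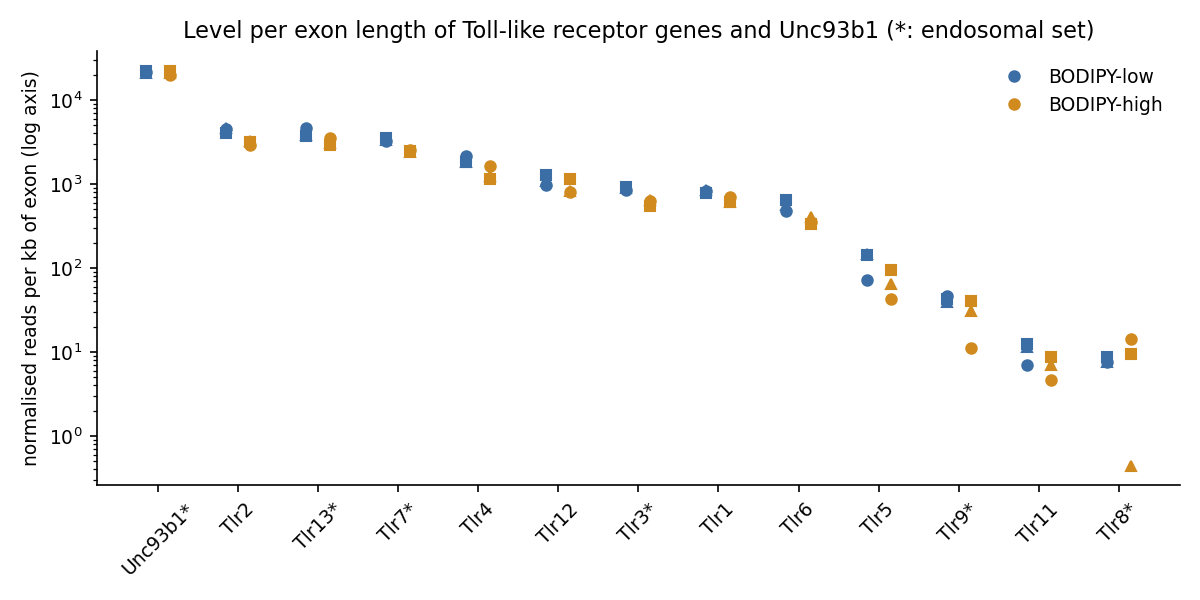
Normalised reads per kilobase of annotated exon (log axis) of Unc93b1 and the 12 Toll-like receptor genes of the table, 1 point per library, circle, square and triangle for replicates 1, 2 and 3, with the 6 genes described here starred. Tlr13, Tlr7 and Tlr3 lie between 550 and 4645 per kilobase, and Tlr9 and Tlr8 between 0.443 and 46.7.

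Tlr3, Tlr7 and Tlr13 were lower in lipid-high than in lipid-low microglia, by 31.8%, 27.0% and 22.3% of the mean, while Unc93b1 differed by 4.2% with overlapping groups. Tlr9 varied widely among lipid-high libraries, and Tlr8 had few reads. Of the 6 genes, 3 were called lower and 0 higher by limma (adjusted p below 0.05 over all 12821 tested genes, and 0 higher at an unadjusted p below 0.05), beside 3.52% of all tested genes called lower and 9.79% called higher. The same 3 genes had all lipid-high libraries below all lipid-low libraries, as did 13.4% of all tested genes, and 18.0% of tested genes had them all above. edgeR called 2 of the 6 lower (Tlr3 and Tlr7, with 3.33% of genes called lower) and DESeq2 called 3 (5.23%). The median log2 fold change was -0.50 over the 6 genes and -0.01 over all tested genes.

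**Figure D2:**
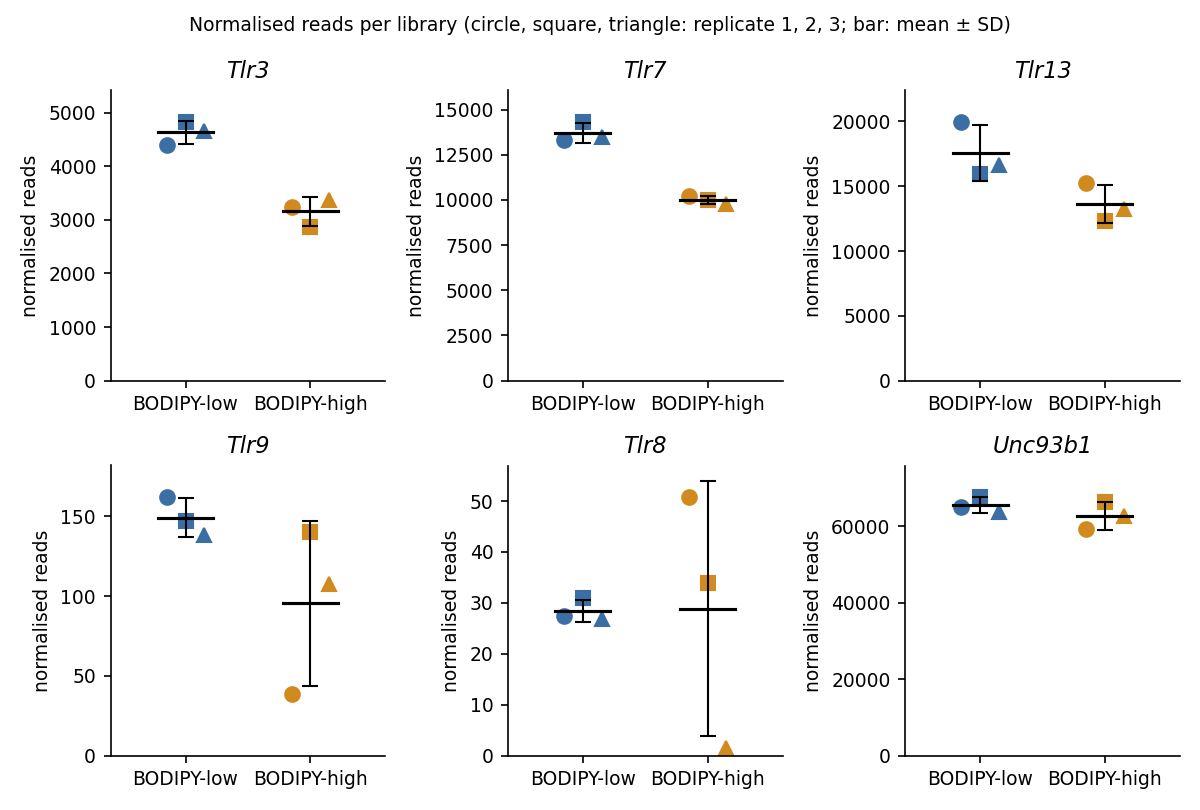
Normalised reads of the 6 genes in each library, by group (x axis), with the mean and SD of 3 libraries. BODIPY-high libraries lie below BODIPY-low libraries for Tlr3, Tlr7 and Tlr13, and the groups overlap for Tlr9, Tlr8 and Unc93b1.

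Tlr7, which senses single-stranded RNA rich in uridine and guanosine (chromosome X, 167304929 to 167330558, GRCm38), had 13305, 14336 and 13505 normalised reads in lipid-low replicates 1, 2 and 3, and 10232, 10024 and 9785 in lipid-high replicates 1, 2 and 3. The lipid-high libraries lay close together and all below the lipid-low ones. The log2 fold change was -0.45 (SE 0.08). The spread of log2 values within a group was 0.06 in lipid-low and 0.03 in lipid-high libraries (SD, n = 3), against a median of 0.18 and 0.21 over all tested genes. The call held with each library left out in turn, with log2 fold changes between -0.47 and -0.42.

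Tlr13, which recognises a conserved stretch of bacterial ribosomal RNA and has no counterpart in the human genome (chromosome X, 106143204 to 106160493), had 19992, 15952 and 16658 normalised reads in lipid-low replicates 1, 2 and 3. lipid-high replicates 1, 2 and 3 had 15219, 12347 and 13284. The groups did not overlap, but the gap between the highest lipid-high and the lowest lipid-low library was small beside the range within either group. The log2 fold change was -0.36 (SE 0.11). The call held without lipid-high replicate 1 (-0.45), with DESeq2 (-0.36) and with TMM scaling (-0.37). A pseudocount of 10, the robust variance model and the replicate number as a block kept it as well (-0.36 each). The call was lost without lipid-low replicate 1, 2 or 3 or lipid-high replicate 2 or 3 (log2 fold changes of -0.27, -0.43, -0.40, -0.30 and -0.35), with edgeR (-0.37) and with no filter on low values (-0.36). lipid-low replicate 1 had the highest Tlr13 value, and also the highest neutrophil (83495), monocyte (12875) and microglial (1902692) marker sums. The part of RNA from each of these cell types in the Tlr13 values was not tested.

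Tlr8 is the neighbour of Tlr7 on chromosome X (167242696 to 167264329) and also a receptor for RNA and its breakdown products. It had 24, 29 and 29 recovered reads in lipid-low replicates 1, 2 and 3, which came to 27.4, 30.9 and 26.9 normalised reads. lipid-high replicates 1, 2 and 3 had 54, 30 and 2 reads, or 50.9, 34.0 and 1.59 normalised reads. The 95% exact Poisson interval of the value was 38.2 to 66.4 in lipid-high replicate 1 and 0.192 to 5.74 in replicate 3. lipid-high libraries thus held both the highest and the lowest value, and the group means were 28.4 ± 2.17 and 28.8 ± 25 (SD, n = 3). The log2 fold change of -0.81 (SE 0.95) rested on lipid-high replicate 3, without which it was 0.54, and edgeR and DESeq2 both gave 0.01. The intervals of lipid-high replicates 1 and 3 did not overlap. They treat reads as independent, which amplified reads without molecular identifiers need not be. No difference between the groups was called.

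Tlr3 (chromosome 8, 45395665 to 45411080) had 4402, 4832 and 4652 normalised reads in lipid-low replicates 1, 2 and 3, and 3232, 2863 and 3377 in lipid-high replicates 1, 2 and 3. The groups were well apart, with the lowest lipid-low library far above the highest lipid-high library. The log2 fold change of -0.55 (SE 0.09) was the largest in size among the 3 called genes of the set. It stayed between -0.60 and -0.49 with each library left out in turn, and the call held each time. Exons of Tlr3 overlap the antisense gene Gm45542, and since the library kits do not mark strand, reads of that overlap cannot be assigned to either gene.

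Tlr9, the receptor for DNA with unmethylated CpG (chromosome 9, 106222598 to 106226883), had 162, 147 and 138 normalised reads in lipid-low replicates 1, 2 and 3. lipid-high replicates 1, 2 and 3 had 38.6, 140.4 and 107. lipid-high replicate 2 lay within the lipid-low range and replicate 1 far below it, on 41 recovered reads. The log2 fold change was -0.82 (SE 0.42) and was not called. It was -0.28 without lipid-high replicate 1. Tlr9 is also known from B cells and plasmacytoid dendritic cells. The B cell marker Ms4a1 was at 0 in 4 of the 6 libraries and at most 3.43 in the others, and Spib, of plasmacytoid cells, was at 0 in 5 libraries and at 13.9 in lipid-low replicate 2. The summed B cell markers, led by Cd79b, were 531 to 837 in lipid-low and 409 to 629 in lipid-high libraries. Other plasmacytoid markers were read in every library. Cox6a2 was at 88.4 to 143.8 in lipid-low and 99.7 to 151 in lipid-high libraries, and Tcf4 at 3447 to 3923 and 3755 to 3923. The part of either cell type in the Tlr9 values was not tested.

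Unc93b1, the chaperone that carries all these receptors from the endoplasmic reticulum to endosomes (chromosome 19, 3935186 to 3949340), ranked at place 38 of the 12821 tested genes by mean value. It had 65180, 67814 and 63688 normalised reads in lipid-low replicates 1, 2 and 3, and 59280.5, 66524 and 62623 in lipid-high replicates 1, 2 and 3. The ranges overlapped. The log2 fold change was -0.06 (SE 0.08), with a 95% interval of -0.24 to 0.11, and lay between -0.11 and -0.02 with each library left out in turn.

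**Figure D3:**
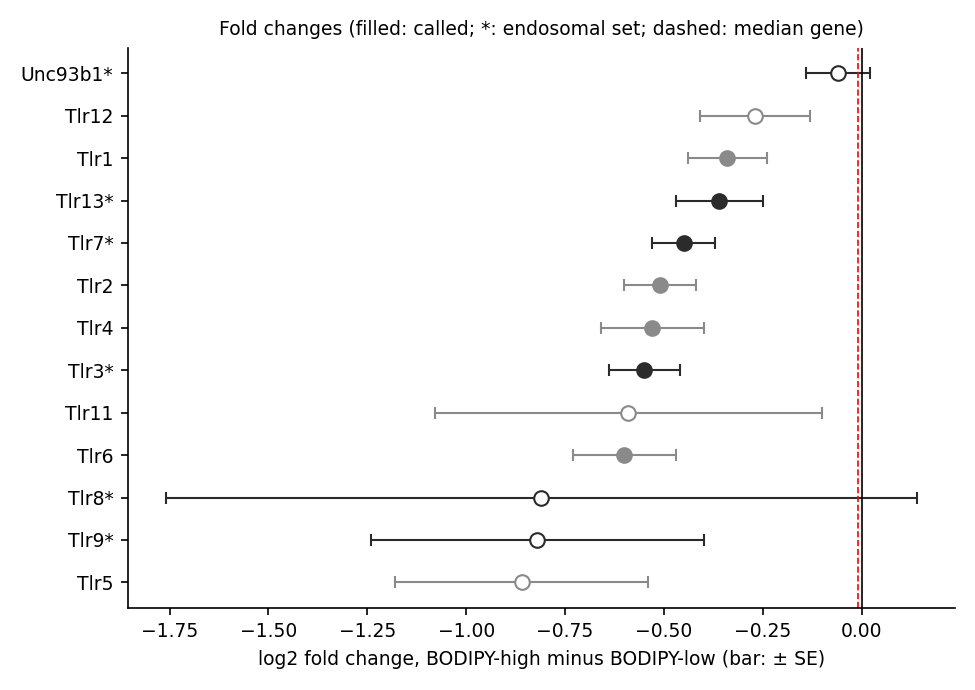
Log2 fold change with its SE (BODIPY-high minus BODIPY-low, limma on log2 of the value plus 1) for Unc93b1 and all 12 Toll-like receptor genes, filled where called. All 12 receptors lie below 0, from -0.86 (Tlr5) to -0.27 (Tlr12), while Unc93b1 lies at -0.06. Tlr8 is at -0.81 here but at 0.01 with edgeR and DESeq2.

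The receptors were also read against their chaperone within each library, which removes any scaling between libraries. Tlr7 came to 20.4%, 21.1% and 21.2% of the Unc93b1 value in lipid-low replicates 1, 2 and 3, and to 17.3%, 15.1% and 15.6% in lipid-high replicates 1, 2 and 3. Tlr3 came to 6.75%, 7.13% and 7.30%, and to 5.45%, 4.30% and 5.39%. For both receptors all lipid-high shares lay below all lipid-low shares. How many of all tested genes do so on this scale was not counted. Tlr13 shares were 30.7%, 23.5% and 26.2% in lipid-low and 25.7%, 18.6% and 21.2% in lipid-high replicates 1, 2 and 3, and overlapped. Tlr9 shares were between 0.217% and 0.249% in lipid-low and between 0.0652% and 0.211% in lipid-high libraries. Since these are reads not corrected for length, the shares compare libraries and not genes.

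Against the sum of the 10 microglial markers, which was itself lower in lipid-high libraries, the differences shrank. On that scale the lipid-high mean was 77.9% ± 8.87 of the lipid-low mean for Tlr3, 83.3% ± 1.79 for Tlr7, 89.0% ± 8.46 for Tlr13 and 110% ± 8.42 for Unc93b1 (SD, n = 3). As normalised reads the same means were 68.2%, 73.0%, 77.7% and 95.8%. Tlr3 and Tlr7 still had all lipid-high libraries below all lipid-low ones, and Tlr13 no longer did. The share of all tested genes that did so on the marker scale was not counted. With all values rescaled to equal microglial markers, a choice made after the values were seen, limma called 0 of the 6 genes (2 lower at an unadjusted p below 0.05). How many of all tested genes passed that unadjusted threshold was not counted. The log2 fold changes were then -0.36 for Tlr3, -0.26 for Tlr7, -0.17 for Tlr13 and 0.13 for Unc93b1, with the median of all tested genes shifted from -0.01 to 0.18, and 139 genes were called lower in place of 451.

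**Figure D4:**
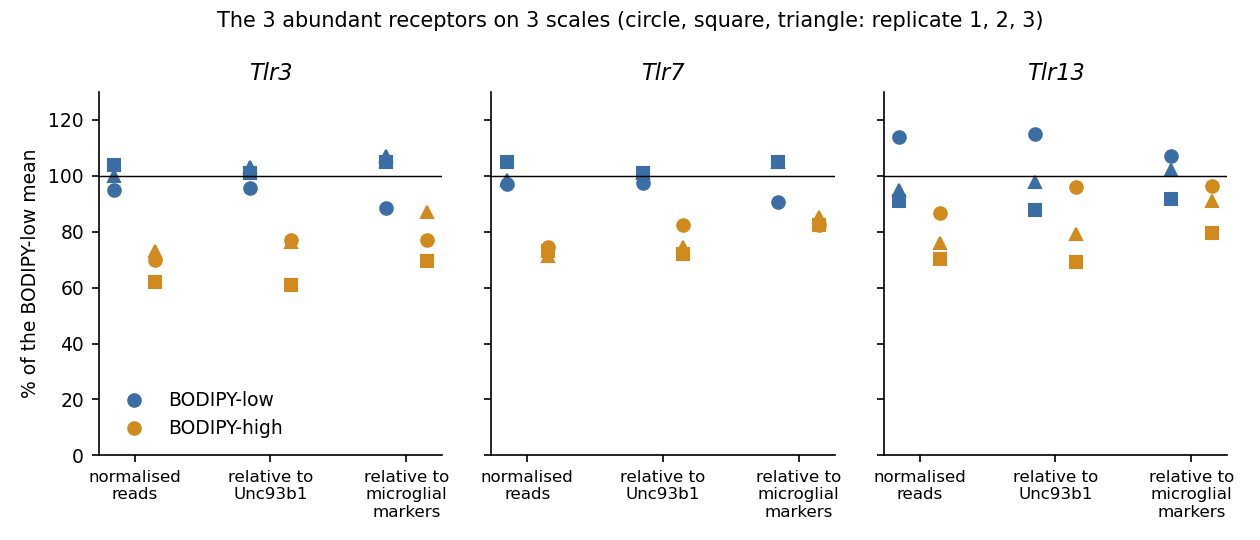
Tlr3, Tlr7 and Tlr13 per library as a percentage of the BODIPY-low mean, as normalised reads, relative to Unc93b1 and relative to the sum of 10 microglial markers. The BODIPY-high mean of Tlr7 lies at 73.0%, 76.4% and 83.3% on the 3 scales, and that of Tlr13 at 77.7%, 81.4% and 89.0%.

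The genes most like each of the 6 over the 6 libraries, by Pearson's r of log2 values, are given as a description. Nearest to Tlr7 were Snx19 (r = 0.9999), Smg8 (0.9997) and Msl2 (0.998), and nearest to Tlr3 were 4632427E13Rik (0.995), Gpr165 (0.993) and Tmx4 (0.991). Those of Tlr13 were Stt3a, Plbd1 and Lysmd3 (0.991 to 0.992), and Plbd1 went from a mean of 305 to 56.9 normalised reads. Tlr9 was followed by Ormdl1, Ckap2 and Dusp2 (0.993 to 0.994), Tlr8 by Josd1, Rabl3 and Xpr1 (0.987 to 0.996), and Unc93b1 by Gm10451, Bbc3 and Tmem39b (0.980 to 0.982). All points share the same 6 libraries and the division into groups, and these are the highest among all tested genes.

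The gene lists from here on were chosen with earlier results of these data known, so adjusted p-values of their genes are a description. Tlr1, Tlr2, Tlr4 and Tlr6, which sit mainly at the cell surface, fell in lipid-high libraries. Of 10 tested genes of these receptors and their co-receptors, 4 fell, 0 rose and 6 did not pass (limma, 0 higher at an unadjusted p below 0.05 and 0 higher by edgeR or DESeq2), with a median log2 fold change of -0.45. Tlr2, which senses lipopeptides as a partner of Tlr1 or Tlr6, fell from 13252 ± 931 to 9320 ± 546 normalised reads (SD, n = 3, log2 fold change -0.51, SE 0.09, limma adjusted p = 0.00313). Tlr4, the receptor for lipopolysaccharide, fell from 10675 ± 1043 to 7457 ± 1489 (-0.53, adjusted p = 0.0213), Tlr6 fell from 2073 ± 300 to 1359 ± 149 (-0.60, adjusted p = 0.0118) and Tlr1 fell from 2728 ± 93.6 to 2161 ± 177 (-0.34, adjusted p = 0.0426). Ly86, or MD-1, the most abundant gene of this list, had 23139 ± 3343 and 22889 ± 4102 (log2 fold change -0.02). Tlr5, Tlr11 and Tlr12, which also depend on Unc93b1, had log2 fold changes of -0.86, -0.59 and -0.27 and were not called. Over all 12 Toll-like receptor genes, those of the endosomal set included, 7 were called lower, beside 3.52% of all tested genes. The count was 4 without lipid-low replicate 2 or 3 or lipid-high replicate 3, and 0 with values rescaled to the microglial markers. Log2 fold changes were below 0 for 12, or for 11 with edgeR and DESeq2 (Tlr8 at 0.01) and without lipid-high replicate 3 (Tlr8 at 0.54). Whether endosomal and surface receptors differ in their change was not tested. Neutrophils and monocytes also carry Tlr2, Tlr4 and Tlr6. Of their tested markers, 9 of 10 and 4 of 5 were called lower in the same libraries, and their part in these values was not tested. The call of Tlr1 held only without lipid-high replicate 1 among the 6 leave-outs (adjusted p up to 0.160 otherwise). That of Tlr4 was lost without lipid-low replicate 1 or 3 or lipid-high replicate 2 or 3 (0.0541 to 0.0927), and that of Tlr6 without lipid-low replicate 2 (0.0586). Tlr2 kept its call in all 6. The list had 2 calls without lipid-low replicate 2, lipid-low replicate 3 or lipid-high replicate 3.

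**Figure D5:**
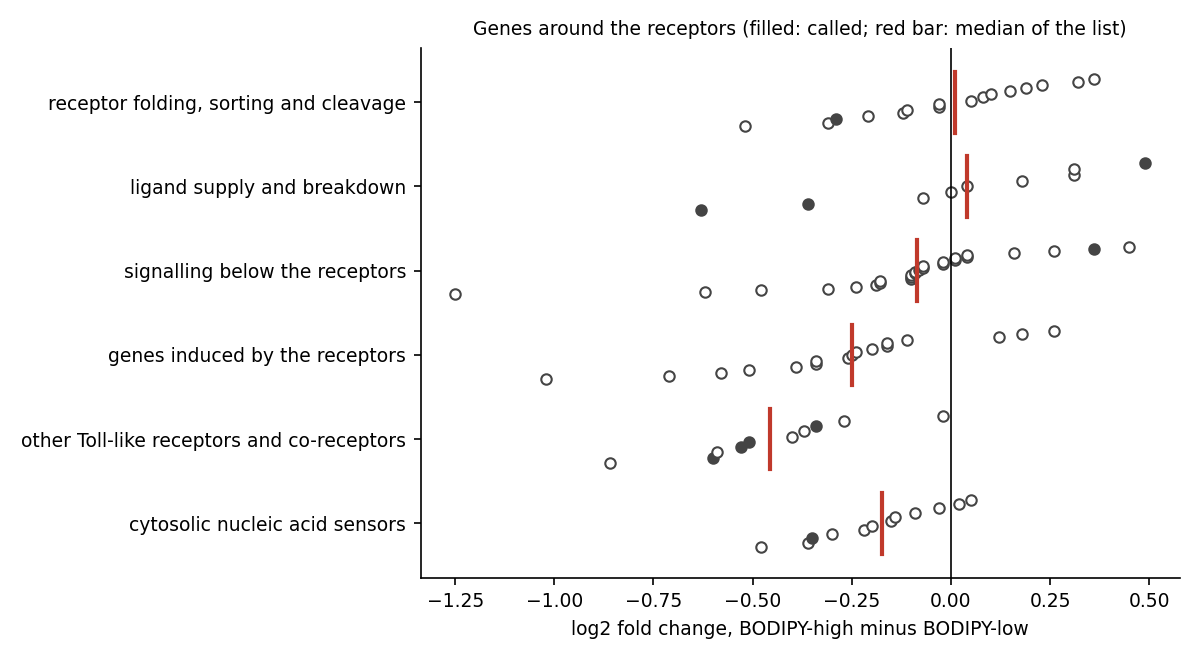
Log2 fold change (BODIPY-high minus BODIPY-low) of each tested gene of 6 lists around the endosomal receptors, filled where called by limma, with the median of each list as a red bar. The list of other Toll-like receptors has a median of -0.45, and that of folding, sorting and cleavage 0.01.

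Genes that fold, move and cut the receptors were for the most part not called. Of 16 tested, 1 fell, 0 rose (3 higher at an unadjusted p below 0.05, 1 by edgeR and 1 by DESeq2) and 15 did not pass, with a median log2 fold change of 0.01. Across all tested genes, limma called 3.52% lower and 9.79% higher. Slc15a4, an endolysosomal transporter needed for signals of Tlr7 and Tlr9, had 9890, 8716 and 8729 normalised reads in lipid-low replicates 1, 2 and 3 and fell to 7732, 7344 and 7195 in lipid-high replicates 1, 2 and 3 (log2 fold change -0.29, SE 0.08, limma adjusted p = 0.0423). Its call held only without lipid-high replicate 1 when single libraries were left out (adjusted p up to 0.149 otherwise). The folding partners Hsp90b1 (gp96) and Cnpy3 had log2 fold changes of -0.12 and 0.05 and were not called. Among the cathepsins that cut the receptors, Ctsb had 219071 ± 27389 normalised reads in lipid-low and 280603 ± 22544 in lipid-high libraries (SD of 3 libraries, log2 fold change 0.36, limma adjusted p = 0.0537), and every lipid-high library lay above every lipid-low one. edgeR and DESeq2 called it (adjusted p = 0.0448 and 0.00771). Ctss had a log2 fold change of 0.32 and Lgmn, or legumain, of -0.21, neither of them called.

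Among genes that supply or break down the ligands, Pld3 rose and Hmgb2 and Cd14 fell, while 6 of the 9 tested did not pass, with a list median of 0.04. The limma shares over all tested genes were 3.52% lower and 9.79% higher. Pld3, an exonuclease of the lysosome that trims single-stranded nucleic acid, had 15790, 13264 and 16022 normalised reads in lipid-low replicates 1, 2 and 3 and 22583, 20752 and 19792 in lipid-high replicates 1, 2 and 3. No lipid-high value came near the lipid-low range (log2 fold change 0.49, SE 0.09, limma adjusted p = 0.00650), and the call held under all alternatives run. All 8 choroid plexus markers were called higher in the same libraries, and the part of that tissue in the Pld3 values was not tested. Its relative Pld4 had 41718 ± 1658 and 41676 ± 3001 (SD, n = 3). Cd14, a co-receptor that helps bring ligands to several Toll-like receptors, fell from 14075 ± 847 to 10922 ± 300 (-0.36, adjusted p = 0.0120), a call lost without lipid-high replicate 3 (adjusted p = 0.0521). Neutrophils and monocytes carry Cd14 as well, and the part of their RNA was not tested. Hmgb2, a DNA-binding protein that can present nucleic acid to the receptors, fell from 1254 ± 351 to 790 ± 24.4 (-0.63, adjusted p = 0.0347). Its highest value, 1656, was in lipid-low replicate 1, and the fold change was -0.41 without that library (adjusted p = 0.0735). Only without lipid-low replicate 2 did this call hold, among the leave-outs.

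Signalling genes below the receptors were mostly not called. Of 26 tested, 1 rose, 0 fell (2 lower at an unadjusted p below 0.05, 0 by edgeR and 0 by DESeq2) and 25 did not pass, with a median log2 fold change of -0.08. Among all tested genes, 9.79% were called higher and 3.52% lower by limma. Irak1, a kinase that acts below Myd88, rose from 2622 ± 120 to 3381 ± 320 normalised reads (SD, n = 3, log2 fold change 0.36, SE 0.10, limma adjusted p = 0.0345). That call held only without lipid-high replicate 2 when single libraries were left out (adjusted p up to 0.144 otherwise). The adaptors Myd88 and Ticam1 had log2 fold changes of 0.16 and -0.31, and the factors Irf5, Irf7 and Irf8 had -0.10, -0.24 and -0.09, none of them called. Irf8, the most abundant of the list, had 22588 ± 1012 and 21313 ± 1643.

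Genes that these receptors induce gave no limma call: 0 of 17 tested rose or fell (0 higher and 3 lower at an unadjusted p below 0.05), edgeR called 0 and DESeq2 called 2 lower. Their median log2 fold change was -0.25. Of all tested genes, DESeq2 called 5.23% lower. The share of all tested genes at an unadjusted p below 0.05 was not counted, here or for the other lists. The DESeq2 calls of this list were Tnf and Nfkbiz, named after their values were seen. Tnf, a cytokine, had 174, 218 and 280.2 normalised reads in lipid-low and 67.8, 147 and 126 in lipid-high replicates 1, 2 and 3 (limma log2 fold change -1.02, adjusted p = 0.0606). Tnfaip3, or A20, which limits NF-kB and was the most abundant gene of the list, had 3089 ± 83.8 and 2617 ± 145 (SD, n = 3, -0.24, adjusted p = 0.110). The interferon-stimulated genes of the list, Ifit1, Ifit2, Ifit3, Isg15, Rsad2, Oasl1 and Oasl2, had log2 fold changes between -0.51 (Rsad2) and 0.12 (Oasl2), none called. Ifnb1, or interferon beta, was at 0 in all lipid-high libraries and at 1.14, 0 and 25.1 in lipid-low replicates 1, 2 and 3.

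The sensors of nucleic acid in the cytosol were tested for comparison. Limma called 3.52% of all tested genes lower and 9.79% higher. Of 12 sensors tested, 1 fell, 0 rose (0 higher at an unadjusted p below 0.05, and 0 by edgeR or DESeq2) and 11 did not pass, with a median log2 fold change of -0.18. Tmem173, or STING, the most abundant of them, had 27019, 25081 and 26147 normalised reads in lipid-low replicates 1, 2 and 3 and 19738, 21321 and 20375 in lipid-high replicates 1, 2 and 3. Its groups were clearly apart (log2 fold change -0.35, SE 0.08, limma adjusted p = 0.0121). The call was lost without lipid-low replicate 3 or lipid-high replicate 3 (adjusted p = 0.0515 and 0.0596). Mb21d1, or cGAS, which feeds STING, had a log2 fold change of -0.30, and the RNA sensors Ddx58 (RIG-I) and Ifih1 (MDA5) had -0.20 and -0.14, none of them called. With values rescaled to the microglial markers, limma called none of the genes that fell in these lists, while Pld3 and Irak1 kept their calls.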

How the data were processed

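Hippocampal microglia were profiled in 6 libraries, 3 per group. Per the series' design text and the submitters' processing notes, the authors mapped reads with STAR 2.5.3a to mm10 (mm9 is also listed), counted them per gene with STAR and used DESeq2 and FastQC 0.11.4. Which annotation and strand column were used is not given in the sources used here. The deposited values are a signal: read counts divided by 1 size factor per library. All values (100%) were whole multiples of the value of 1 read in their library at a tolerance of 0.01, so whole reads were recovered (24982215 to 34899425 per library). Coordinates and exon lengths came from GENCODE M21 (GRCm38, the assembly of mm10).

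The main test was that of limma 3.58.1 in R 4.3.3 with a trended variance, two-sided, with calls where the Benjamini-Hochberg adjusted p was under 0.05. It ran on log2(value + 1) of 12821 genes, those whose mean reached 10. The pseudocount shrinks fold changes of low genes. edgeR 4.0.16 and DESeq2 1.42.0 on recovered reads, a replicate block, TMM scaling, a pseudocount of 10, no filter, a robust variance model, scaling to microglial markers and leaving out each library were alternatives. Named genes were all members and, per list, the called genes (at most 6) and the most abundant one, plus the 3 genes most correlated with each member. The members and lists were chosen with earlier results of these data known. The p-values rest on the spread among these 6 libraries alone, which may be technical in part. Reads were amplified and carry no molecular identifiers, so the intervals describe counting error and nothing else. Rnaset2a and Il12a were not analysed here.

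Marker lists also covered conventional dendritic, T and NK cells, astrocytes and endothelium. Their sums in lipid-low and lipid-high libraries were 105 to 340 and 245 to 353, 4.57 to 11.7 and 0 to 1.59, 7186 to 8242 and 8167 to 10371, and 1216 to 1382 and 1226 to 1524. Plasmacytoid markers, mostly Tcf4, summed to 3604 to 4043 and 3926 to 4035.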

Additional observations from a re-analysis of the deposited data

How the results depend on the processing

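The directions of Tlr3, Tlr7, Tlr9 and Tlr13 were the same under all alternatives run. That of Tlr8 turned with edgeR (0.01), with DESeq2 (0.01) and without lipid-high replicate 3, its leave-one-out range being -1.63 to 0.54. That of Unc93b1 turned when values were scaled to the microglial markers (0.13), a choice made after the data were seen. Under this scaling the calls of Tlr3 (-0.36), Tlr7 (-0.26) and Tlr13 (-0.17) were lost and 0 of the 6 genes were called lower. Tlr13 also lost its call with edgeR (-0.37) and with no filter (-0.36), and its leave-one-out range was -0.45 to -0.27. The call of Tlr13 held with the replicate number as a block (-0.36). Irf8 (0.11) and Ly86 (0.17) turned under the marker scaling. That scaling divides all genes of a library by the same factor. It moved the median of all tested genes from -0.01 to 0.18, so fold changes just below 0 turned with it. Ly86 ranged from -0.16 to 0.10 over the leave-outs. What made the marker sum lower in lipid-high libraries, and the leave-outs vary, was not tested.

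Marker scaling gave 2071 genes higher and 139 lower. Higher and lower calls then numbered 4 and 0 for folding, sorting and cleavage, 2 and 0 for ligand supply, and 2 higher for signalling, with 0 lower for other Toll-like receptors and for cytosolic sensors. DESeq2 gave 1 higher and 2 lower for folding, 2 higher for ligand supply and 2 lower for induced genes. edgeR gave 1 higher for folding. The robust variance model gave 1 higher for folding and 1 lower for induced genes.

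With the replicate number as a block, limma called 760 genes lower, and 3 higher and 2 lower for folding, 2 higher for ligand supply and 3 lower for induced genes. Deviations from the group means of equally numbered libraries correlated at 0.11, 0.144 and 0.0728. Those of unequally numbered libraries correlated at -0.115 to 0.00158. The labels do not say that equal numbers share a pool, so the main fit and the leave-outs took no pairs. The main fit called 451 genes lower, against 760 with the block. Each library correlated best with its own number in the other group, a hint from the data and not from the labels. Deviations within a group cancel out, so higher correlations at equal numbers bring lower ones at unequal numbers by construction. Whether equal numbers share a pool was not tested.

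Leaving out single libraries gave 689 to 1295 genes higher and 151 to 523 lower. The lowest counts were 689 higher and 219 lower without lipid-high replicate 3, and 180 and 151 lower without lipid-low replicates 2 and 3. The counts ranged from 0 to 2 higher and 0 to 2 lower for folding, 1 to 2 higher and 0 to 2 lower for ligand supply, 0 to 1 higher for signalling, 0 to 2 lower for induced genes, 2 to 4 lower for other Toll-like receptors, and 0 to 2 lower for cytosolic sensors. Tlr8 had the fewest reads of the 6 genes, 2 to 54 per library, with values spread widely among its lipid-high libraries.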
